A study of Mus musculus with 12 samples.

Results

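Ftl1 encodes the light chain of ferritin, and it was represented on the arrays by 6 cDNA clones, each printed as 2 neighbouring spots. Its members were all measured spots whose gene was Ftl1 when the platform annotation was read from the last spot to the first, which gave 12 of 4167 spots with a value and 6 of 2151 clones with a value. The livers compared came from HpHx-null mice (Hp-/-Hx-/-, without haptoglobin and hemopexin), Hp-null mice (Hp-/-Hx+/, without haptoglobin) and Hx-null mice (Hp+/Hx-/-, without hemopexin), and from wild-type mice (Hp+/Hx+/) as the common comparison. All were adult littermates from F1 parents heterozygous for both genes, on a mixed C57/BLJ6 X 129Sv background. Livers perfused with PBS were pooled, at least 5 mice per genotype, and RNA of each null pool was hybridised on 4 arrays with 2 colours against a wild-type pool, so that the 12 arrays hold 3 pairs of pools. Dyes were swapped on replicates 3 and 4. As nothing in the labels points to a second pool of any genotype, SDs and SEs describe the spread between arrays and not between mice, and fewer cells of a type cannot be told apart from less RNA per cell.

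Ferritin is a hollow shell of light and heavy chains that stores iron inside cells. The heavy chain oxidises incoming iron and the light chain helps to form the mineral core. Liver holds much of the body's ferritin, in hepatocytes and in Kupffer cells, its resident macrophages, which take up hemoglobin bound to haptoglobin. Heme in plasma is carried to the liver by hemopexin, and heme breakdown releases iron. Translation of both chains is blocked by iron regulatory proteins when iron is scarce, and transcription of both genes is raised by oxidative stress. An array of this kind reads transcript amounts only.

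The name Ftl1 rests on the reversed reading of the spot numbers, which was inferred from the values themselves (from which clones held any), so that being measured is no finding about the gene. By the reversed reading all 6 annotated Ftl1 clones held values, and by the direct reading 0 of the 6 did. Of 21 genes with at least 6 annotated clones, Ftl1 was the 1 gene with every clone measured, while 13.8% of all clones were. Cross-hybridisation of related transcripts was not tested: a RefSeq table of assembly GRCm38.p6 lists 3 pseudogenes of ferritin light chain, and a cDNA probe may not separate them from Ftl1. No coordinates are given here.

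The direction of the deposited ratios was not settled. Arrays of the same genotype and the same labelled dye correlated across clones at between -0.78 and 0.85, so that some of them run opposite to each other. The first principal component, computed without the Ftl1 clones, held 72.4% of the summed squares, and the sign of its loadings put the arrays in blocks A and B of 6 arrays each, 2 from every genotype. Block A holds replicates 1 and 4 of HpHx-null, 2 and 3 of Hp-null and 1 and 2 of Hx-null. The block departs from the labelled dye on 4 arrays, and its cause was not tested. As it was taken from the same values, p-values with the block as a term may be too small and counts of calls too high. Ratios below keep the deposited sign, and those of Ftl1 and of genes that passed a test are also given with arrays turned. If they are null over wild-type, as the channel order in the labels would have it, a negative value means less RNA in the null pool. The arrays held 3009 to 4165 values each, and their number limits the precision.

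Averaged over its clones and centred on the array median, Ftl1 had negative ratios in all 4 Hp-null arrays and ratios on both sides of 0 in HpHx-null and Hx-null. In HpHx-null, replicates 1 to 4 had log2 ratios of 0.03, -0.95, -0.89 and 0.31. In Hp-null they were -1.55, -0.45, -0.28 and -1.47. In Hx-null they were 0.29, 0.40, -0.82 and -0.97. Arrays of block A were the higher 2 in every genotype, and the 4 Hp-null values overlapped those of both other genotypes when blocks were ignored. Among all features (genes, or single clones where the annotation gave no 1 symbol), those negative on every array were 6.52% in HpHx-null, 3.92% in Hp-null and 5.93% in Hx-null. Ftl1 was chosen by these same log ratios, and its spots by holding a value, so the values are described and not tested.

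**Figure D1:**
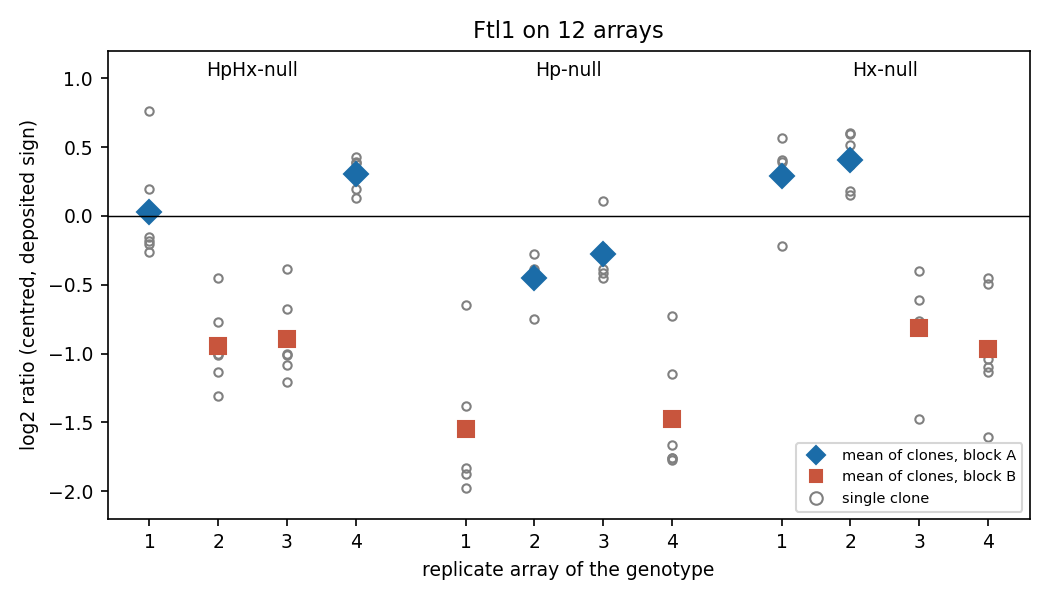
Centred log2 ratio of Ftl1 (vertical axis) on each replicate array (horizontal axis) of HpHx-null, Hp-null and Hx-null. Filled symbols are the mean of the clones, by array block, and open circles single clones. The Hp-null means run from -1.55 to -0.28, and within each block they are the lowest of the 3 genotypes.

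The mean log2 ratio was -0.38 ± 0.64 in HpHx-null, -0.94 ± 0.67 in Hp-null and -0.27 ± 0.72 in Hx-null (SD, n = 4 arrays each). These are sizes of 1.30-fold, 1.91-fold and 1.21-fold. In a limma fit to the whole table the SE of each was 0.32 with the labelled dye as a term and 0.07 with the array block as a term, and the ratios were the same in both. In Hp-null 2 of 2017 features had a lower ratio, in HpHx-null 19 of 1711 and in Hx-null 65 of 1865. The median over all features lay between -0.02 and 0.00 in the 3 comparisons. On the single Hp-null arrays the share of features below Ftl1 ran from 0.394% to 16.9%. It ran from 0.402% to 64.3% on HpHx-null arrays and from 4.31% to 69.1% on Hx-null arrays, so the ranges overlapped.

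Most of the spread of Ftl1 between arrays lay between the blocks. Of its sum of squares about the mean, 78.3% lay between blocks, 19.9% between genotypes and 1.74% in neither, while the labelled dye accounted for 5.85% when taken in place of the block. The ratio was 1.16 higher in block A than in block B, a difference larger in size than that of 88.4% of the 1129 features measured on all arrays, whose median size was 0.37. The block difference was 1.09 in HpHx-null, 1.14 in Hp-null and 1.24 in Hx-null. Arrays of 1 genotype and block differed by 0.05 to 0.28, so the repeats within a block were close together.

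Within each block, Hp-null had the lowest Ftl1 ratio. In block A the means of 2 arrays were 0.17 in HpHx-null, -0.36 in Hp-null and 0.35 in Hx-null. In block B they were -0.92 in HpHx-null, -1.51 in Hp-null and -0.89 in Hx-null. Both Hp-null arrays lay below both Hx-null arrays in each block, as they did for 7.4% of features, and below both HpHx-null arrays, as for 4.69% of features. HpHx-null and Hx-null overlapped in both blocks: HpHx-null replicate 4 and Hx-null replicate 1 stood at 0.31 and 0.29 in block A, and in block B both HpHx-null arrays lay between the 2 Hx-null arrays.

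With the wild-type pool cancelled, Hp-null was 0.66 below Hx-null, with a signed difference of -0.66 (SE 0.45 with the labelled dye and 0.10 with the block). It was -0.71 in block A and -0.62 in block B. HpHx-null was 0.56 above Hp-null (SE 0.45 and 0.10), by 0.53 in block A and 0.59 in block B. HpHx-null differed from Hx-null by -0.10 (SE 0.45 and 0.10), by -0.18 in block A and -0.03 in block B, which is about the size of the SE with the block. With the deposited sign the order of the levels was thus Hp-null, HpHx-null and Hx-null from the lowest. The last 2 did not differ beyond the spread of their arrays. The distances of Hp-null from them, 0.66 and 0.56, stood beside an SE of 0.45 with the labelled dye. Only the SE with the block, which was taken from the same values, was small beside these distances. With 1 array left out and the labelled dye as a term, Hp-null minus Hx-null ran from -0.97 (without Hp-null replicate 3) to -0.38 (without Hp-null replicate 1). HpHx-null minus Hp-null was smallest, at 0.24, when HpHx-null replicate 4 was left out, and largest, at 0.87, when Hp-null replicate 3 was. HpHx-null minus Hx-null ran from -0.42 (without HpHx-null replicate 4) to 0.17 (without HpHx-null replicate 2), so its sign changed.

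**Figure D2:**
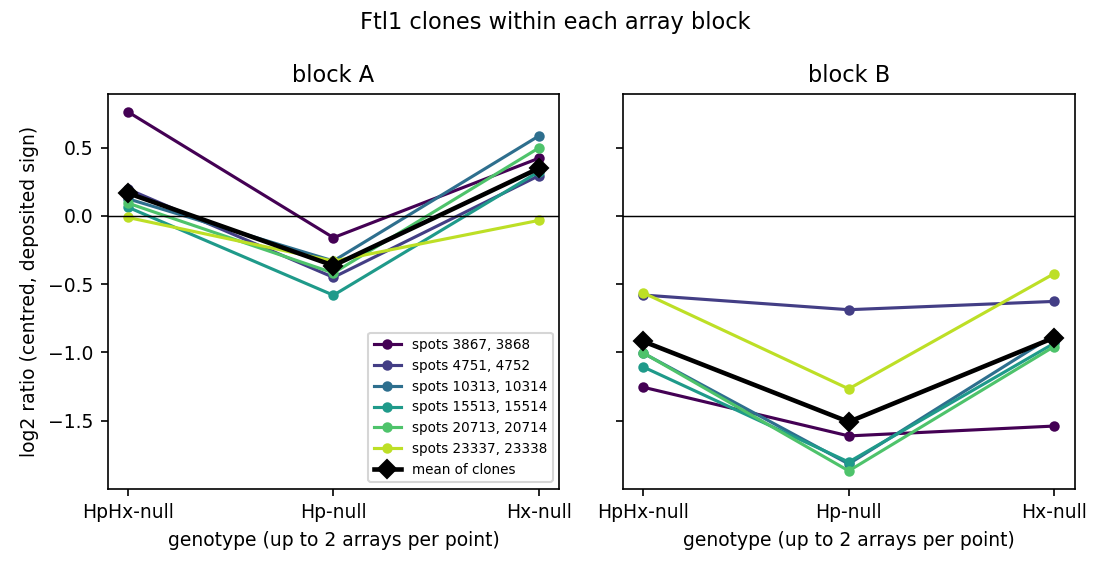
Mean centred log2 ratio of each Ftl1 clone (vertical axis, coloured lines) and of the mean of clones (black line) in HpHx-null, Hp-null and Hx-null, with block A on the left and block B on the right. Every clone has its lowest mean in Hp-null in both blocks, from -0.06 to -0.94 relative to Hx-null. The share of all measured clones with this pattern was not computed.

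The double null stood 0.83 above the sum of the single nulls (SE 0.55 with the labelled dye and 0.12 with the block). This contrast keeps the wild-type pool, so a deviation of that pool alone would enter it.

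The reading of the sign changed these values. With the arrays turned by the labelled dye, as for a ratio of Cy5 to Cy3, the mean log2 ratio of Ftl1 was -0.08 ± 0.77 in HpHx-null, -0.06 ± 1.27 in Hp-null and 0.62 ± 0.32 in Hx-null (SD, n = 4 arrays each). With block B turned, it was 0.54 ± 0.45 in HpHx-null, 0.57 ± 1.08 in Hp-null and 0.62 ± 0.32 in Hx-null. Under that last reading all 3 means were positive and close together, and the low value of Hp-null was not seen. The difference of Hp-null from Hx-null was -0.68 with arrays turned by the dye and -0.05 turned by the block. HpHx-null minus Hp-null was -0.02 and -0.03, and HpHx-null minus Hx-null was -0.70 and -0.08. Turned by the block, the Hp-null and Hx-null means cross between blocks, at -0.71 in block A and 0.62 in block B. The distance of the double null from the sum was -0.64 turned by the dye and -0.65 turned by the block. The low Ftl1 ratio of Hp-null and the distance from the sum therefore hold for the deposited sign only.

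**Figure D3:**
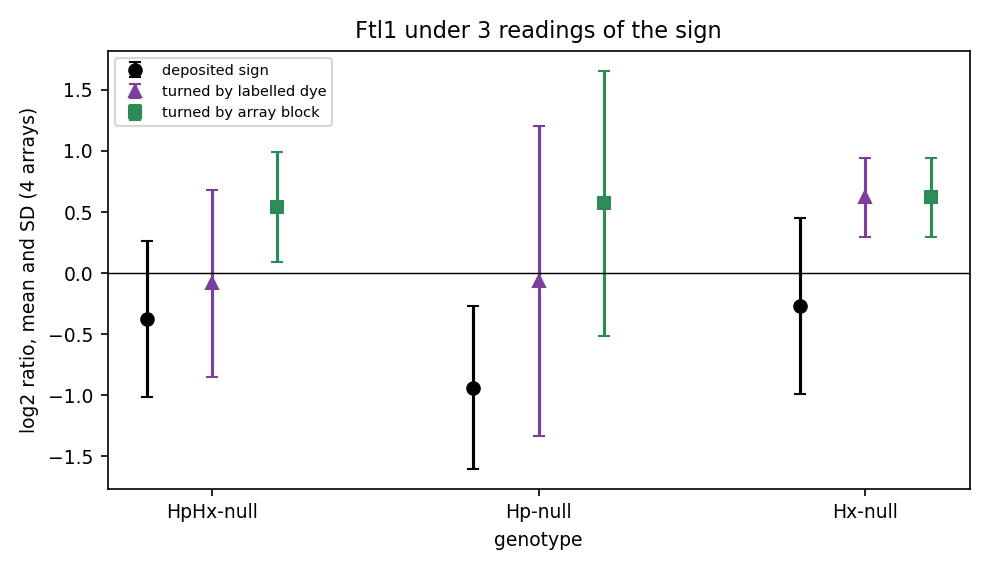
Mean log2 ratio of Ftl1 (vertical axis, bars are SD over 4 arrays) in HpHx-null, Hp-null and Hx-null under 3 readings of the sign. With the deposited sign Hp-null is lowest at -0.94, and with block B turned the means are 0.54, 0.57 and 0.62.

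The clones behind these means fell into kinds. Duplicate spots of a clone correlated over the arrays at 0.95 to 0.99 and differed by 0.05 to 0.14 on average, so the duplicates were close. The clones of spots 10313, 15513 and 20713, each 5200 spots after the one before, correlated at 0.98 or higher and differed by 0.07 to 0.14 on average, about as much as duplicate spots did. Other pairs of Ftl1 clones differed by 0.30 to 0.60 on average. The 15 pairs of Ftl1 clones correlated at 0.70 or higher, with a median of 0.88. Pairs of clones of 1 other gene had a median of 0.85 over 188 pairs, and pairs of clones of different genes a median of 0.31, with 21.3% above the lowest Ftl1 pair. With the block means taken out, the Ftl1 pairs correlated at 0.26 to 0.99. The correlations of Ftl1 pairs are over 10 to 12 arrays, and those of pairs of clones of 1 other gene could rest on fewer. The arrays share the wild-type pool and the blocks.

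The clone of spots 20713 and 20714 had log2 ratios of -0.21, -1.01, -1.0 and 0.39 on HpHx-null replicates 1 to 4. In Hp-null it had -1.98, -0.39, -0.45 and -1.76, and in Hx-null 0.40, 0.60, -0.82 and -1.09. Its Hp-null arrays lay below those of both other genotypes within each block, a pattern whose share over all clones was not computed. The value of -1.98 was the lowest of any Ftl1 clone. The clone of spots 10313 and 10314 had -0.18, -1.0, -1.01 and 0.43 in HpHx-null, -1.88, -0.27, -0.39 and -1.76 in Hp-null, and 0.56, 0.60, -0.61 and -1.13 in Hx-null. The clone of spots 15513 and 15514 had -0.26, -1.13, -1.08 and 0.39 in HpHx-null, -1.83, -0.75, -0.41 and -1.77 in Hp-null, and 0.27, 0.37, -0.83 and -1.04 in Hx-null. These 3 clones had means of -0.52 to -0.44 in HpHx-null, -1.19 to -1.07 in Hp-null and -0.31 to -0.14 in Hx-null. Their signed difference of Hp-null from Hx-null ran from -0.94 to -0.87 over both blocks.

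The clone of spots 23337 and 23338 moved less between blocks. It had -0.16, -0.45, -0.68 and 0.13 in HpHx-null, -1.38, -0.43, -0.23 and -1.15 in Hp-null, and -0.22, 0.15, -0.40 and -0.45 in Hx-null. Its block difference was 0.55 in HpHx-null, 0.94 in Hp-null and 0.39 in Hx-null. The signed difference of Hp-null from Hx-null was -0.30 in block A and -0.84 in block B.

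The other 2 clones lacked a value on 1 array each and separated Hp-null from Hx-null mainly in block A. The clone of spots 3867 and 3868 had 0.76, -1.31 and -1.20 on HpHx-null replicates 1 to 3 and no value on replicate 4. It had -1.56, -0.43, 0.11 and -1.66 in Hp-null, and 0.33, 0.51, -1.48 and -1.60 in Hx-null. It was the 1 clone with a positive value in Hp-null, and in block B its Hp-null and Hx-null means were -1.61 and -1.54. Both of its HpHx-null arrays in block B lay above both Hp-null arrays. The clone of spots 4751 and 4752 had 0.20, -0.77, -0.39 and 0.19 in HpHx-null, and 0.40, 0.18, -0.76 and -0.49 in Hx-null. In Hp-null it had -0.65, -0.45 and -0.73 on replicates 1, 2 and 4 and no value on replicate 3. Its signed difference of Hp-null from Hx-null was -0.74 in block A and -0.06 in block B.

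Over all 6 clones, the Hp-null mean was the lowest of the 3 genotypes in both blocks. The share of all measured clones with this pattern was not computed, and 3 of the 6 differed from each other about as little as duplicate spots. Relative to Hx-null it ran from -0.92 to -0.30 in block A and from -0.94 to -0.06 in block B. HpHx-null stood 0.32 to 0.92 above Hp-null in block A and 0.11 to 0.86 in block B. Between HpHx-null and Hx-null the clones were divided, with 4 of 6 lower in HpHx-null in each block. Clones share the hybridised RNA and are no replicates of a genotype.

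Leaving out the 2 clones that lacked a value on an array moved 1 array across 0. With the 4 clones measured on all arrays, HpHx-null replicate 1 stood at -0.20, against 0.03 with all 6. All 6 held a value on that array, and the 2 left out, at 0.76 and 0.20, were the highest there. On these 4 clones the means were -0.43 ± 0.61 in HpHx-null, -1.05 ± 0.74 in Hp-null and -0.23 ± 0.67 in Hx-null (SD, n = 4 arrays each), so the order of the genotypes was the same.

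Other genes of iron and heme handling were examined beside Ftl1. Of 72 such genes, 36 had a clone on the array and 9 were measured. With the labelled dye as a term, limma with Benjamini-Hochberg adjustment over all features called 0 of 8 tested in HpHx-null (background 0%), 0 of 9 in Hp-null (background 0%) and 0 of 9 in Hx-null (background 0.643%). At an unadjusted p under 0.05 the counts were 2 in HpHx-null, 1 in Hp-null and 0 in Hx-null, where 5.79%, 2.43% and 3.75% of all features had such a p. The unmoderated test of the same fit also called 0. With the array block as a term, 1 of 8 was called in HpHx-null (background 5.38%), 0 of 9 in Hp-null (background 2.78%) and 0 of 9 in Hx-null (background 2.09%). At an unadjusted p under 0.05 the counts with the block were 2 in HpHx-null, 3 in Hp-null and 2 in Hx-null, where 13.2%, 19.1% and 13.5% of all features had such a p. The median ratio of the measured genes was -0.01 in HpHx-null, 0.08 in Hp-null and 0.02 in Hx-null.

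Fth1, the ferritin heavy chain and partner of Ftl1 in the shell, had negative ratios on all 9 arrays that measured its single clone. They were -0.21, -0.14 and -0.09 on replicates 1, 2 and 4 of HpHx-null. In Hp-null they were -0.43, -0.04 and -0.63, and in Hx-null -0.09, -0.19 and -0.48, on replicates 1, 3 and 4. Within block B the Hp-null pair and the Hx-null pair overlapped. The mean was -0.15 ± 0.06 in HpHx-null, -0.37 ± 0.30 in Hp-null and -0.25 ± 0.20 in Hx-null (SD, n = 3 arrays each). These arrays were not balanced over the blocks. With the block as a term the fitted ratio was -0.19 in HpHx-null and -0.21 in Hx-null (SE 0.10 each). In Hp-null the fitted ratio was -0.33 with the block (SE 0.10, limma adjusted p = 0.134) and -0.36 with the labelled dye (SE 0.15, limma adjusted p = 0.999), and it was not called in any genotype. Turned by the block, the means were -0.05 in HpHx-null, 0.34 in Hp-null and 0.19 in Hx-null. On 8 of the 9 arrays its ratio was smaller in size than that of Ftl1. Lamp2, a lysosomal membrane protein, was the other measured gene of ferritin turnover, and it had a mean of 0.18 ± 0.27 in Hp-null and 0.19 ± 0.15 in Hx-null (SD, n = 4 arrays each). In HpHx-null 2 arrays measured it, at 0.15 and 0.40.

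Genes of iron uptake and control had means within 0.25 of 0 with the deposited sign, some of them over arrays of opposite sign. Tfrc, the transferrin receptor, which takes up iron and whose mRNA is stabilised when iron is scarce, had means of -0.12 ± 0.24 in HpHx-null, -0.02 ± 0.27 in Hp-null and 0.01 ± 0.22 in Hx-null (SD, n = 4 arrays each). The importer Slc39a14 had -0.12 ± 0.32 in HpHx-null, -0.14 ± 0.21 in Hp-null and 0.08 ± 0.56 in Hx-null (SD, n = 4 arrays each). Its Hx-null arrays stood at -0.62 and -0.12 in block A and at 0.60 and 0.45 in block B. Fbxl5, the iron-sensing part of the ligase that degrades iron regulatory protein 2, had 0.25 in HpHx-null, 0.11 in Hp-null and 0.16 in Hx-null, with positive values on all 12 arrays. Hif1a, a factor of the hypoxia response, had -0.01 ± 0.26 in HpHx-null, -0.01 ± 0.39 in Hp-null and -0.12 ± 0.49 in Hx-null (SD, n = 4 arrays each). None of these 4 genes passed with either term. With block B turned, which itself raises the calls over all features to 1074 of 2017 in Hp-null and 818 of 1865 in Hx-null, 3 of them passed. Hif1a was then at -0.34 in Hp-null (limma adjusted p = 0.00479) and -0.40 in Hx-null (limma adjusted p = 0.00247), Slc39a14 at -0.45 in Hx-null (limma adjusted p = 0.00553) and Tfrc at -0.22 in Hp-null (limma adjusted p = 0.0400). Turned by the labelled dye, Hif1a was at 0.04 and Tfrc at -0.07 in Hp-null. In Hx-null, where dye and block coincide, the turned means were the same, and no list gene was called with arrays turned by the dye.

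**Figure D4:**
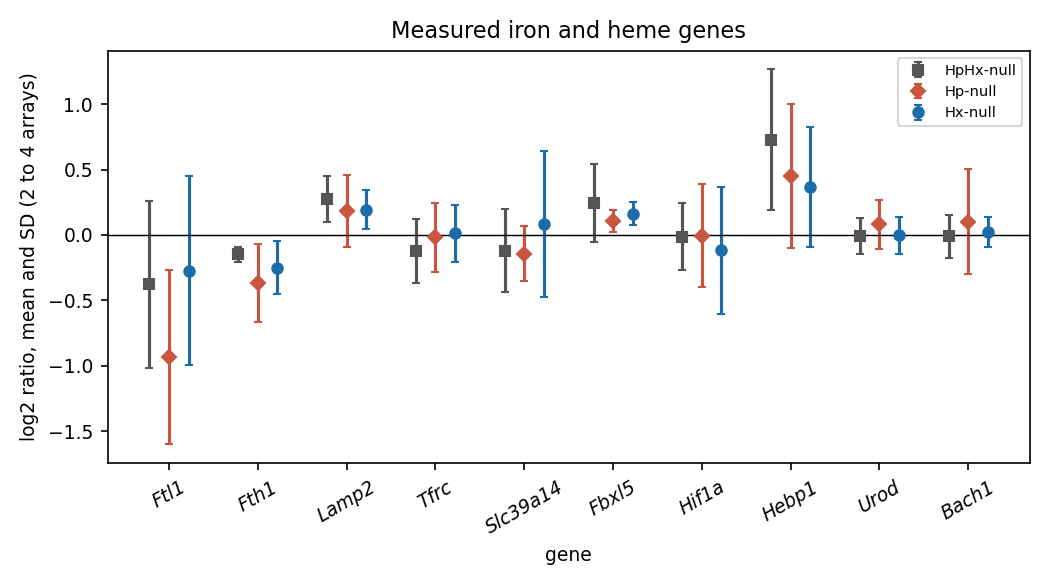
Mean centred log2 ratio (vertical axis, bars are SD over the 2 to 4 arrays with a value) of Ftl1 and the 9 other measured iron and heme genes (horizontal axis) in HpHx-null, Hp-null and Hx-null, with the deposited sign. Ftl1 in Hp-null, at -0.94, has the lowest mean, and Hebp1 in HpHx-null, at 0.73, the highest.

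In heme handling, Hebp1, a heme-binding protein of the cytosol, was the only gene called with the deposited sign. It had log2 ratios of 0.97, -0.05, 1.16 and 0.84 on HpHx-null replicates 1 to 4, 0.15, 0.89, 0.93 and -0.18 in Hp-null, and 0.59, 0.91, -0.07 and 0.04 in Hx-null. Its fitted ratio in HpHx-null was 0.73 with the block (SE 0.15, limma adjusted p = 0.013), and 3 of the 4 arrays were positive. The blocks were taken from values that include those of Hebp1, so this p may be too small. With the labelled dye Hebp1 was not called (SE 0.25, limma adjusted p = 0.509). Turned by the labelled dye the mean was -0.27, and turned by the block 0.17. Urod, a heme synthesis enzyme, had ratios of -0.01 in HpHx-null, 0.08 in Hp-null and 0.00 in Hx-null, and Bach1, a repressor of ferritin and heme oxygenase genes that heme inactivates, had -0.01, 0.10 and 0.02 in the same order of genotypes. With block B turned, which itself raises the calls in Hp-null to 1074 of 2017 features, Bach1 passed there at -0.33 (limma adjusted p = 0.0058). Turned by the labelled dye, Bach1 was at -0.08 in Hp-null and was not called. Of the 13 genes of mitochondrial iron and iron-sulfur clusters 5 were on the array and 0 were measured. The heme oxygenases, ferroportin and the NRF2 gene Nfe2l2 were on the array without a value and are not analysed here.

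Cell type markers were measured too sparsely to follow the cells that hold ferritin. Of 11 hepatocyte markers 4 were measured (Alb, Ttr, Apoa1 and Serpina1e), with a median of their mean ratios of 0.30 in HpHx-null, -0.09 in Hp-null and 0.31 in Hx-null. Ttr, plasma transthyretin, had a fitted ratio of -0.55 in Hp-null with the block (SE 0.13, limma adjusted p = 0.0383), and 2 of its 4 arrays were negative; its mean was 0.017 turned by the labelled dye and 0.68 turned by the block. Serpina1e, a serine protease inhibitor of plasma, had 1.37 in HpHx-null with the block (SE 0.18, limma adjusted p = 0.00346), and 3 of its 4 arrays were positive; its mean was -0.26 turned by the dye and 1.21 turned by the block. Of 14 markers of Kupffer cells and macrophages 2 were measured, the Fc receptor genes Fcgr1 and Fcer1g, with a median of 0.22 in HpHx-null, -0.04 in Hp-null and 0.20 in Hx-null. Fcgr1 had 0.52 in HpHx-null with the block (SE 0.11, limma adjusted p = 0.0151), and all 4 arrays were positive; its mean was -0.19 turned by the dye and -0.29 turned by the block. None of these markers was called with the labelled dye. The blocks came from the same data, so p-values with the block may be too small. With the block, Fcer1g had -0.08 in HpHx-null, 0.01 in Hp-null and -0.04 in Hx-null, and was not called. Among hepatocyte markers not called with the block, Alb, Apoa1 and Serpina1e had -0.01, -0.17 and 0.53 in Hp-null. In HpHx-null, Alb, Apoa1 and Ttr had 0.41, 0.19 and 0.05. C1qa and C1qb were on the array without a value, and the defining macrophage genes Cd68, Adgre1 and Clec4f are not analysed here. With the deposited sign both medians were lowest in Hp-null, as Ftl1 was, but not with the arrays turned. The hepatocyte median was then -0.27 in HpHx-null, -0.03 in Hp-null and 1.16 in Hx-null by the dye, and 0.76, 0.78 and 1.16 by the block. The macrophage median was -0.15, -0.06 and -0.13 by the dye and -0.24, -0.16 and -0.13 by the block, in the same order of genotypes. The part of these cells in the Ftl1 ratio was not tested. Of 12 erythroid markers 1 was measured (Tfrc), and of 8 endothelial and stellate and 6 lymphocyte markers 0 were.

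The named genes most like Ftl1 over the arrays were sought among 545 measured on all 12. The highest correlations with Ftl1 belonged to Agbl5, a carboxypeptidase that trims glutamate chains from tubulin (Pearson r = 0.98), Hspa5, the ER chaperone (0.97), Selenop, the plasma selenium carrier (0.96), Selenow, a small selenoprotein (0.96), and Pafah1b1, a regulator of dynein (0.96). The median over all 545 genes was -0.67. These values are over 12 arrays that share the wild-type pool and the blocks. With the block means taken out, the highest were Agbl5 (0.95), Hspa5 (0.88), Selenow (0.85), Selenop (0.84) and Irgq, a gene of the immunity-related GTPase family (0.83), so that 4 genes stood in both lists. The median was then -0.08.

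The genotype means of Agbl5 were -0.32 in HpHx-null, -0.87 in Hp-null and -0.13 in Hx-null, the same order as for Ftl1. It had log2 ratios of 0.41, -1.40, -1.17 and 0.88 on HpHx-null replicates 1 to 4, -1.86, -0.02, 0.21 and -1.80 in Hp-null, and 0.64, 1.03, -1.16 and -1.03 in Hx-null. Both Hp-null arrays were the lowest of their block, as for Ftl1, and the block means of 0.53 in A and -1.40 in B lay farther apart than those of Ftl1. Agbl5 was picked for its correlation with Ftl1, so the shared order of genotypes and arrays follows from that choice. Hspa5 had means of 0.03 in HpHx-null, -0.54 in Hp-null and 0.08 in Hx-null. The other 4 genes had means of 0.05 to 0.47 in HpHx-null, -0.44 to -0.28 in Hp-null and 0.00 to 0.51 in Hx-null, so that unlike Ftl1 they were not negative in the other 2 genotypes. Each of these genes was measured by 1 clone.

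**Figure D5:**
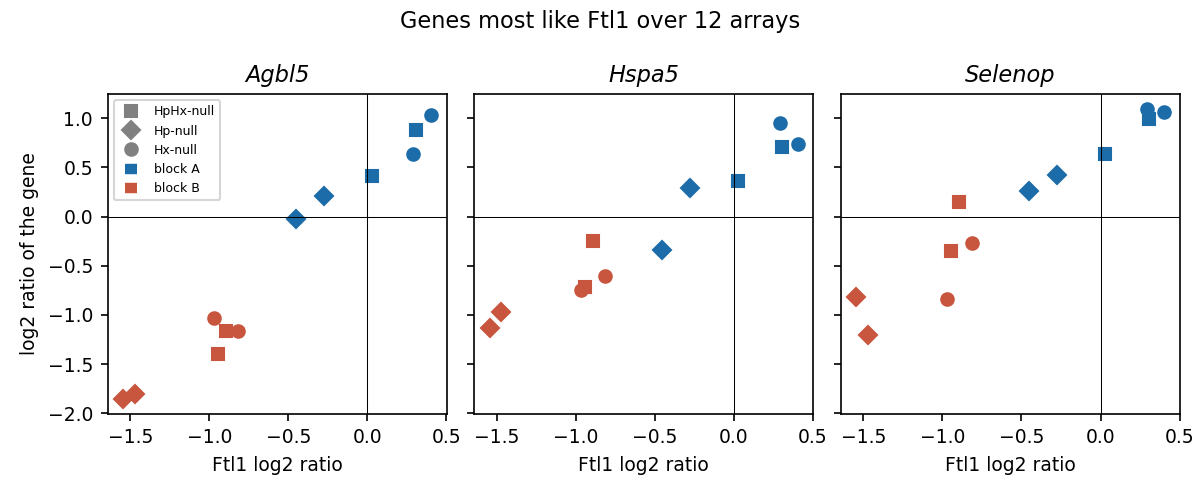
Centred log2 ratio of Agbl5, Hspa5 and Selenop (vertical axis) against that of Ftl1 (horizontal axis) on the 12 arrays, with symbols for HpHx-null, Hp-null and Hx-null and colours for the array blocks. The points rise along a line (Pearson r = 0.98, 0.97 and 0.96), and every block A array lies to the right of every block B array.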

How the data were processed

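Per the labels and the design text, pooled liver RNA was labelled directly with Cy3 or Cy5 and each null pool hybridised against wild-type on 4 arrays. The values deposited by the authors are log ratios in 1 table, treated as log2; their base, normalization, spot filter and direction are not stated there. Each array was centred on its median, duplicate spots were averaged into clones and clones into genes (R 4.3.3, limma 3.58.1). Gene names come from the platform annotation read in reverse spot order, with symbols updated by Entrez number. limma's lmFit and robust eBayes ran on all 12 arrays and all features with at least 3 of 4 arrays per genotype compared (2 with an array left out), and a feature was called at a Benjamini-Hochberg adjusted p under 0.05. The fit was tested on simulated data. Ftl1 was described without a p. Named genes were Ftl1, all measured list genes and the 5 most correlated genes, with and without block means. Unmeasured genes were named to show gaps. Measured markers were named too. Members and lists were chosen with earlier results of these data known. Alternatives changed centring, scaling, dye term, sign, arrays, clones, filter, test and numbering.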

Additional observations from a re-analysis of the deposited data

Results flagged for a closer look

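Of 42 sets of 4 arrays examined for a single distant value (Ftl1, its clones and the list genes in each genotype), 1 was marked. The rule marks about 1 in 20 sets of independent values without blocks. These sets hold arrays of both blocks and share arrays, so that rate does not apply to them. Fbxl5 had a log2 ratio of 0.69 on 1 HpHx-null array, replicate 3, with the other arrays between 0.06 and 0.13.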

How the results depend on the processing

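Of 283 Ftl1 values under other settings, 276 stayed within the array SD of the value reported. The other 7 came from turning arrays. Turned by the labelled dye, the Hx-null ratio was 0.62, the Hp-null ratio -0.063 and the distance from the sum -0.64; turned by the block, the ratios were 0.54 in HpHx-null, 0.57 in Hp-null and 0.62 in Hx-null and the distance -0.65. That SD includes the block difference, and the differences between nulls that came near 0 after turning, one of them with the opposite sign, are within it. Many of the 276 values could not move, because dyes and blocks were balanced within each genotype. Dropping the dye term, or putting the block or the replicate number in its place, returned the same ratio. Leaving out an array of another genotype also returned it, so the count is no measure of robustness. With each array left out in turn, the ratio ran from -0.69 to -0.10 in HpHx-null, -1.24 to -0.65 in Hp-null and -0.47 to -0.07 in Hx-null with the labelled dye. The distance from the sum ran from 0.52 to 1.14. With the block as a term, a setting chosen after seeing the data, the ratio ran from -0.42 to -0.31, -0.97 to -0.90 and -0.31 to -0.23 in that order, Hp-null minus Hx-null from -0.71 to -0.63, HpHx-null minus Hp-null from 0.52 to 0.63 and HpHx-null minus Hx-null from -0.15 to -0.04. Leaving out each clone gave -1.02 to -0.88 in Hp-null, and quantile scaling -0.77. By the direct numbering Ftl1 had no value.

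Over all features, the labelled dye called 0 in HpHx-null, 0 in Hp-null and 12 in Hx-null. In the same order, the block called 92, 56 and 39 and the loading 90, 92 and 69. Block and loading were both taken from the same values, so these counts may be too high. With block B turned, the counts were 662, 1074 and 818, which the turning itself raises, as the blocks were taken from the same values. In HpHx-null, 7 were called with no dye term and 7 among features measured on all arrays. In Hx-null the count was 7 with values as deposited, 5 with quantile scaling, 0 turned by the labelled dye and 0 among features measured on all arrays. With an array left out it was 0 to 13 in Hx-null, with 0 left without Hx-null replicate 1, 2 or 3, and 0 to 2 in HpHx-null, with 2 without Hp-null replicate 4. List genes other than Ftl1 called were 1 in HpHx-null with the block or the loading and 1 in Hp-null with the loading, each time Hebp1. With block B turned they were 3 in Hp-null (Hif1a, Bach1 and Tfrc) and 2 in Hx-null (Hif1a and Slc39a14).

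With the replicate number as a block, the Hp-null ratio of Ftl1 was -0.94 (SE 0.36) and 0 features were called in Hx-null. Same-numbered arrays of different genotypes correlated at -0.86 to 0.85 in their deviations, over 0.1 in 4 of 12 pairs. The correlation was positive where both arrays were of the same block and negative otherwise. As the block was not taken out, this cannot show whether the numbers pair the arrays.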
